A study of Homo sapiens with 6 samples.

Results

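The miR-28, miR-151 and miR-708 family was examined in the small RNA of exosomes, the small vesicles that cells release into their medium. Members were chosen by name: every arm of miR-151a, miR-151b, miR-28 and miR-708 in the deposited tables, which gave 7 of the 2575 mature miRNA entries listed. They are hsa-miR-151a-3p, hsa-miR-151a-5p, hsa-miR-151b, hsa-miR-28-3p, hsa-miR-28-5p, hsa-miR-708-5p and hsa-miR-708-3p, written below without the species prefix. No measured value enters that naming. The family was, however, selected for description with its counts and the group difference of miR-151a-3p already known, so the adjusted p of its members describe the fit over all entries and are no independent evidence. The exosomes came from HCT116, an established human colorectal cancer line. For 1 group the line was exposed over 6 h of co-culture to ETBF, the enterotoxigenic form of the gut anaerobe Bacteroides fragilis, at a multiplicity of infection of 500. The other group received the bacterial medium without ETBF. Each group had 3 libraries. Nothing in the labels ties them to separate cultures, and p-values therefore reflect only how far these libraries differ, which may be technical.

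For 6 of 6 libraries the sample's title and its file's name point to opposite groups. Groups here follow the titles and are called titled untreated and titled ETBF. Should the file names hold instead, every direction given below is turned around, with the same sizes, errors and p-values.

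The members are known for their origin in LINE-2 elements, old retrotransposons whose inverted copies fold into hairpins that the miRNA machinery can process. A hairpin yields a 5p and a 3p arm, of which usually 1 is loaded into an Argonaute protein and the other is degraded. Bases 2 to 8 of the loaded arm, the seed, pair with target messenger RNAs. miR-151a has been linked to the migration of tumour cells together with its host gene, the focal adhesion kinase gene PTK2, and miR-28-5p and miR-28-3p have been described as having different effects in colorectal cancer cells. In GENCODE release 29, MIR151A lies in an intron of PTK2, MIR28 in an intron of LPP and MIR708 in an intron of TENM4, each on the strand of its host. LPP encodes a protein of cell adhesion sites and TENM4 a teneurin, a transmembrane protein of neural development. MIR151B lies on the opposite strand of an intron of EVL, an actin regulator gene. That annotation is of another build than the submitters', so no positions are given.

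RefSeq mature sequences (GRCh38.p14) were matched for 3 of the 7 members and are shown because their seeds set apart the arms compared below. They are written 5′ to 3′ with the seed in capitals.
miR-28-3p: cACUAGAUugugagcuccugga
miR-708-3p: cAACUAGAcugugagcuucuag
miR-708-5p: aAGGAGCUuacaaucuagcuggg
The seed of miR-28-3p was found in 1 of 2351 distinct mature sequences, its own, and so was that of miR-708-3p. Among the sequences in that table, the seed of miR-708-5p was shared with miR-3139. miR-28-5p had no sequence there, so whether it shares the seed of miR-708-5p was not read here. Both 3p arms hold the run UGUGAGCU of 8 bases, and 5 of the 2350 other mature sequences (0.213%) share a run of at least that length with miR-28-3p. With that run in capitals the pair reads as follows.
miR-28-3p: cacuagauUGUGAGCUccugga
miR-708-3p: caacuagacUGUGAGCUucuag
miR-28-3p and miR-708-5p, arms of different hairpins, hold complementary runs of 9 bases, shown in capitals. For 6 of the 2350 other sequences (0.255%) a complementary run against miR-28-3p was at least as long.
miR-28-3p: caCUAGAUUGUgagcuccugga
miR-708-5p: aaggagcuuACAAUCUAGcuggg

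Libraries were shallow, with 200207 to 417321 counts, and 195 entries held enough counts to be tested. CPM values are counts relative to library sizes scaled by TMM, with factors of 0.776 to 1.19, and 3 counts correspond to 8.29 to 14.6 CPM. All 9 miRNAs listed as markers of colorectal epithelium had counts, with summed levels of 33140 to 34664 CPM in the titled untreated and 28877 to 32482 CPM in the titled ETBF libraries. Markers of other tissues were present too. The 6 of stroma and endothelium summed to 10456 to 12313 and 9122 to 10292 CPM, and the 7 of blood cells to 669 to 729 and 528 to 694 CPM. Of muscle and liver 4 were summed, to 23717 to 24957 and 19385 to 22340 CPM. miR-133a-3p was present but not in that sum, at 1382, 1519 and 1556 CPM in titled untreated and 1273, 1074 and 1239 CPM in titled ETBF replicates 1 to 3. Apart from blood cells, these sums were lower in each titled ETBF library than in any titled untreated library. Groups also did not overlap for 76 of the 195 tested entries (39%), in either direction. Members of a list differed, with log2 fold changes of -0.31 for miR-192-5p, -0.030 for miR-200b-3p and 0.024 for miR-429 in the epithelial list. The largest change in that list was -0.61 for miR-375 (SE 0.17, edgeR adjusted p = 0.0432). No other tested entry of the list had an adjusted p under 0.05. The part of these markers in the results below was not tested.

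The family was dominated by 1 strand. miR-151a-3p held 94.8% to 98.7% of the family's counts in each library, and it ranked between place 5 and place 13 of all entries. In the titled untreated libraries its mean was 15396 ± 4085 CPM, against 365 ± 3.24 for miR-28-3p, the next member (SD, n = 3). miR-708-5p (67.1 ± 8.02 CPM) and miR-151a-5p (66.5 ± 2.97 CPM) followed and did not differ beyond their spread. miR-708-3p (47.6 ± 19.6 CPM) and miR-28-5p (32.6 ± 9.85 CPM) came next, again within their spread, and miR-151b was last at 1.84 ± 3.19 CPM. In the titled ETBF libraries miR-151a-3p and miR-28-3p again led, at 31888 ± 15062 and 397 ± 84.6 CPM, and the 4 members from miR-708-5p to miR-708-3p lay between 38.6 and 52.3 CPM with SDs of 7.71 to 20.2. Mature miRNAs are of nearly the same length, so these levels were compared without a length correction.

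**Figure D1:**
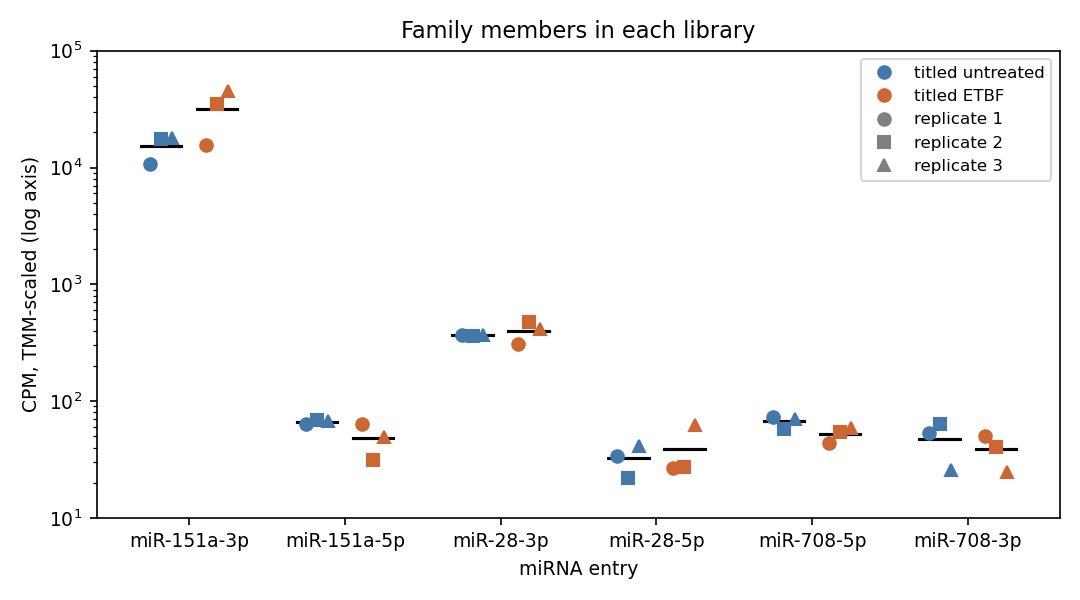
Level of 6 family members in each of the 6 libraries, in TMM-scaled CPM on a log axis, with black bars for group means (n = 3) and symbols for replicate numbers; miR-151b, with 0 to 2 counts in each library, is not drawn. miR-151a-3p stands apart from the other members in each library, and its titled ETBF replicate 1 (15592 CPM) lies among the titled untreated libraries.

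miR-151a-3p, the dominant strand, had 2197, 6336 and 5621 counts in titled untreated replicates 1 to 3, or 10688, 17500 and 18001 CPM. It held 4630, 7708 and 14626 counts in the titled ETBF libraries, or 15592, 34773 and 45300 CPM. Titled ETBF replicates 2 and 3 were above each titled untreated library, while titled ETBF replicate 1 was within their range, so the groups overlapped. The fitted difference was 2.07-fold, or 1.05 on the log2 scale (standard error, SE, 0.35), and it did not pass the threshold of 0.05 (edgeR quasi-likelihood test, adjusted p = 0.0749 over 195 entries). In a comparison of exosome RNA, more copies per vesicle and more vesicles that carry the miRNA cannot be told apart.

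Among the fits that left out a library, only that without titled ETBF replicate 1 passed the threshold. Without titled ETBF replicate 1 the log2 fold change of miR-151a-3p was 1.35 (SE 0.15, edgeR adjusted p = 2.13e-08), and without titled ETBF replicate 3 it was 0.70 (SE 0.35, edgeR adjusted p = 0.226). Of 18 settings, the one reported included, 8 passed the threshold, DESeq2 among them (adjusted p = 0.0194) and limma-voom not (adjusted p = 0.106), and the value was positive in all 18. The adjusted p of miR-151a-3p over the 17 alternatives ran from 1.43e-13, with no low-count filter, to 0.226.

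**Figure D2:**
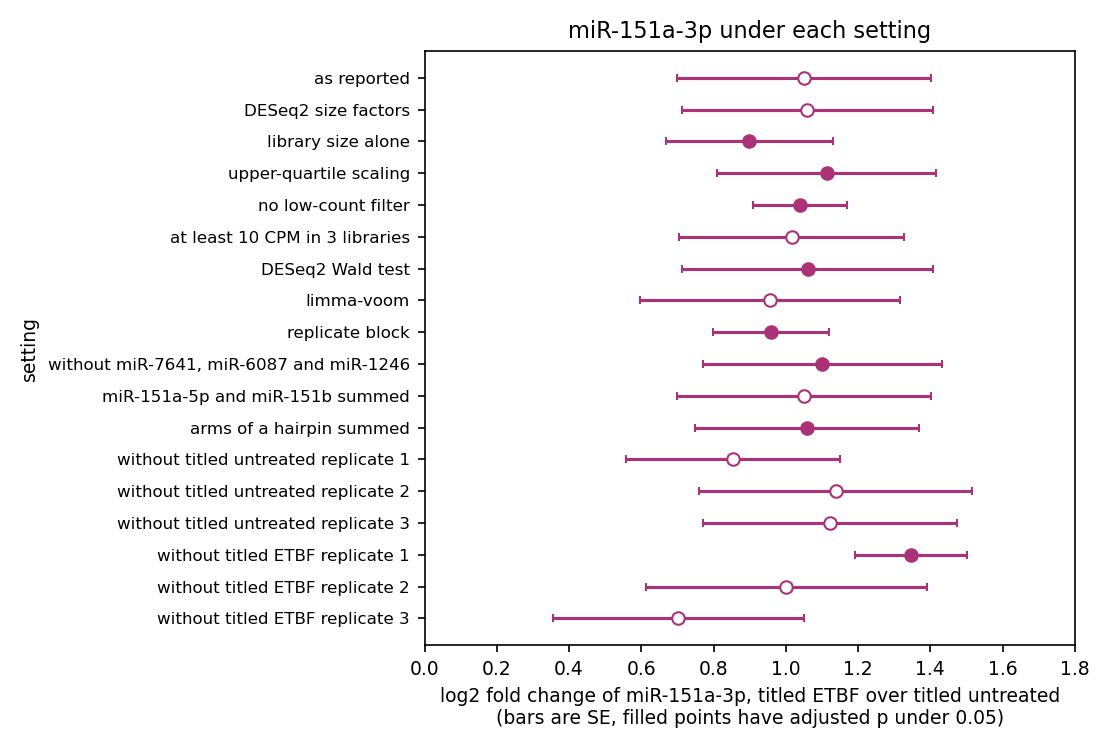
Log2 fold change of miR-151a-3p, titled ETBF over titled untreated, on the x axis under each of 18 settings on the y axis, with bars for SE and filled points for an adjusted p under 0.05. All values lie between 0.70 and 1.35, and the 2 ends are the settings without titled ETBF replicate 3 and without titled ETBF replicate 1.

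Replicates of miR-151a-3p were far apart for so abundant a miRNA. Its SD of log2 CPM was 0.80 among the titled ETBF libraries, the highest of the 20 most abundant entries, whose median was 0.13. Among the titled untreated libraries it was 0.42, the second highest of those 20, whose median was 0.08. Counting error alone would give a coefficient of variation of 1.05% and 1.46% in the titled ETBF and titled untreated libraries, against 47.2% and 26.5% observed. The library with the lowest share of miR-151a-3p, titled untreated replicate 1 at 1.10% of counts, also had the highest share of the entry miR-7641, at 24.4% against 12.3% and 14.7% in the other titled untreated libraries. In titled ETBF replicates 1, 2 and 3 miR-7641 held only 0.535%, 0.425% and 0.389%. miR-6087 held 3.44%, 3.46% and 3.38% in the titled untreated and 0.232%, 0.0973% and 0.0918% in the titled ETBF libraries. Their log2 fold changes were -5.18 and -4.61. Shares of counts are therefore not shares of like totals in the groups. The shares of miR-151a-3p in titled ETBF replicates 1, 2 and 3 were 1.85%, 3.47% and 3.50%, and those of miR-148a-3p, the most abundant entry, were 33.1%, 42.6% and 51.1%. The part of miR-7641, miR-6087 or miR-148a-3p in the spread of miR-151a-3p was not tested.

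miR-151a-5p, the other arm of the same hairpin, did not share that pattern. It had 13, 25 and 21 counts in titled untreated replicates 1 to 3 (63.2, 69.0 and 67.3 CPM), against 19, 7 and 16 in titled ETBF replicates 1 to 3 (64.0, 31.6 and 49.6 CPM). Its lowest levels were in titled ETBF replicates 2 and 3, the libraries with the highest miR-151a-3p, and the groups overlapped through titled ETBF replicate 1. The coefficient of variation of miR-151a-5p was 4.47% in the titled untreated libraries, where counting error alone would give 22.5%. In the titled ETBF libraries it was 33.6% against 26.7%, so the spread of this arm was not far from counting error. The log2 fold change of miR-151a-5p was -0.43 with an SE of 0.27 (edgeR adjusted p = 0.310), and without titled ETBF replicate 1 it was -0.70 (SE 0.36, edgeR adjusted p = 0.140).

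miR-151b is a short entry whose mature sequence is known to lie within that of miR-151a-5p, so reads of one can be assigned to the other. It held 0, 2 and 0 counts in the titled untreated and 0, 1 and 1 in the titled ETBF libraries, too few to test. Together that is 4 counts beside the 101 of miR-151a-5p, or 3.81% of both (95% exact Clopper-Pearson interval 1.05% to 9.47%). Intervals here cover counting error only, since amplified reads without molecular identifiers are not independent molecules. In the 3 libraries at 0, that count allows a share of up to 0.00150%, 0.00102% and 0.00120% of the library. Adding miR-151b to miR-151a-5p gave a log2 fold change of -0.41 (edgeR adjusted p = 0.311).

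The ratio of arms within a library needs no scaling between libraries. That of miR-151a does depend on how reads shared by miR-151a-5p and miR-151b were counted, which is not given. If such reads were dropped, the 5p counts are too low and the excess of the 3p arm too high. For miR-151a the 3p arm exceeded the 5p arm 169-fold, 253-fold and 268-fold in the titled untreated libraries. In titled ETBF replicates 1, 2 and 3 the excess was 244-fold, 1101-fold and 914-fold. Titled ETBF replicate 1 lay among the titled untreated libraries, and the other two lay above all of them. The 5p arm made up 0.588%, 0.393% and 0.372% of miR-151a counts in the titled untreated group, against 0.409%, 0.0907% and 0.109% in the titled ETBF group. The 95% exact intervals of titled ETBF replicates 2 and 3 (0.0365% to 0.187% and 0.0625% to 0.177%) lay below those of the other 4 libraries, the lowest of which began at 0.231%.

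**Figure D3:**
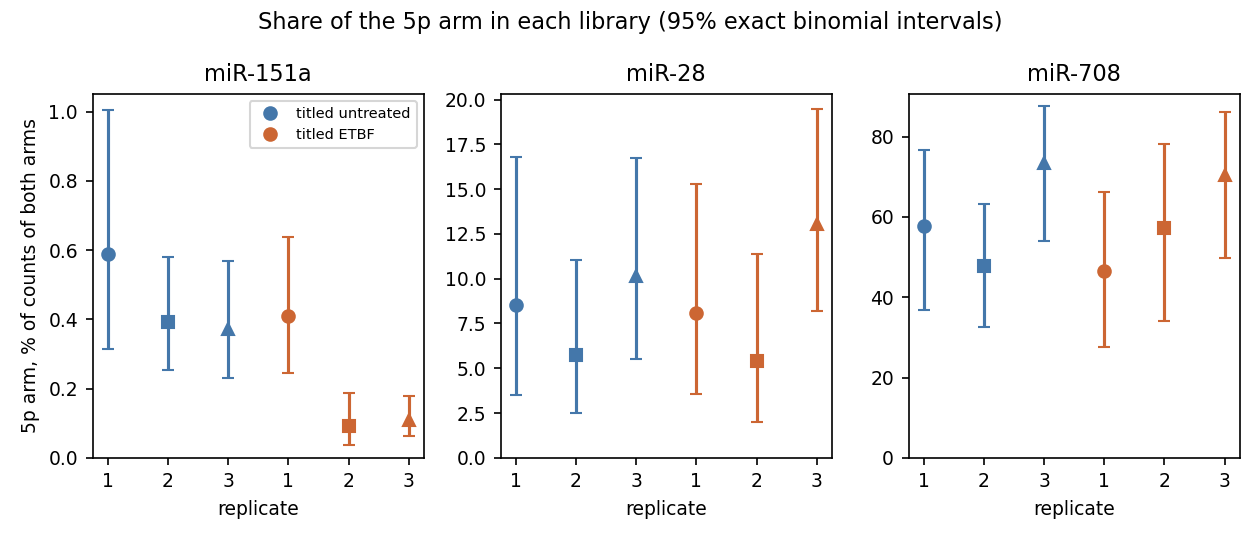
Share of the 5p arm in the counts of both arms, in percent, for miR-151a, miR-28 and miR-708 in each library (x axis, replicate number; colours, titled groups), with bars for 95% exact binomial intervals; the panels have different y scales that all start at 0. For miR-151a, titled ETBF replicates 2 and 3 sit at 0.0907% and 0.109%, below the other 4 libraries, while miR-28 and miR-708 show overlapping groups.

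The mean log2 ratio of 5p to 3p counts of miR-151a was -7.78 ± 0.38 in the titled untreated and -9.23 ± 1.16 in the titled ETBF group (SD, n = 3). The difference of -1.45 (SE 0.52) did not pass a limma fit over the 29 hairpins with at least 10 counts of each arm in at least 3 libraries (adjusted p = 0.148). Of those hairpins 0 passed in limma, a background of 0%, and 9 (31%) had an unadjusted p under 0.05, miR-151a among them. With precision weights 4 passed, miR-9, miR-30e, miR-423 and miR-99b. Without titled ETBF replicate 1 the difference for miR-151a was -2.12 (SE 0.33, limma adjusted p = 1.30e-05), and 8 of 26 hairpins passed. Without titled ETBF replicate 3 it was -1.17 (SE 0.40, limma adjusted p = 0.0311), and 4 of 26 passed. The adjusted p of miR-151a ran from 1.30e-05 to 0.276 over the 12 alternatives that fitted it, of which those 2 passed.

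Only miR-9 had a larger difference in arm ratio, at -3.32 (SE 0.89, limma adjusted p = 0.0871), among the 29 hairpins. In strand dominance over all libraries miR-151a came next after miR-148a, whose mean log2 ratio was -11.23, and miR-21, at 9.19, with a mean of its own of -8.50. The 6 other hairpins with most counts, miR-148a, miR-21, let-7a, miR-199a, miR-30a and miR-200a, had differences of -0.13, 0.024, 0.11, -0.087, 0.16 and 0.39 with SEs of 0.26 to 0.36, none past the threshold. Groups did not overlap for 11 of the 29 hairpins (37.9%), and miR-151a was not one of them.

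**Figure D4:**
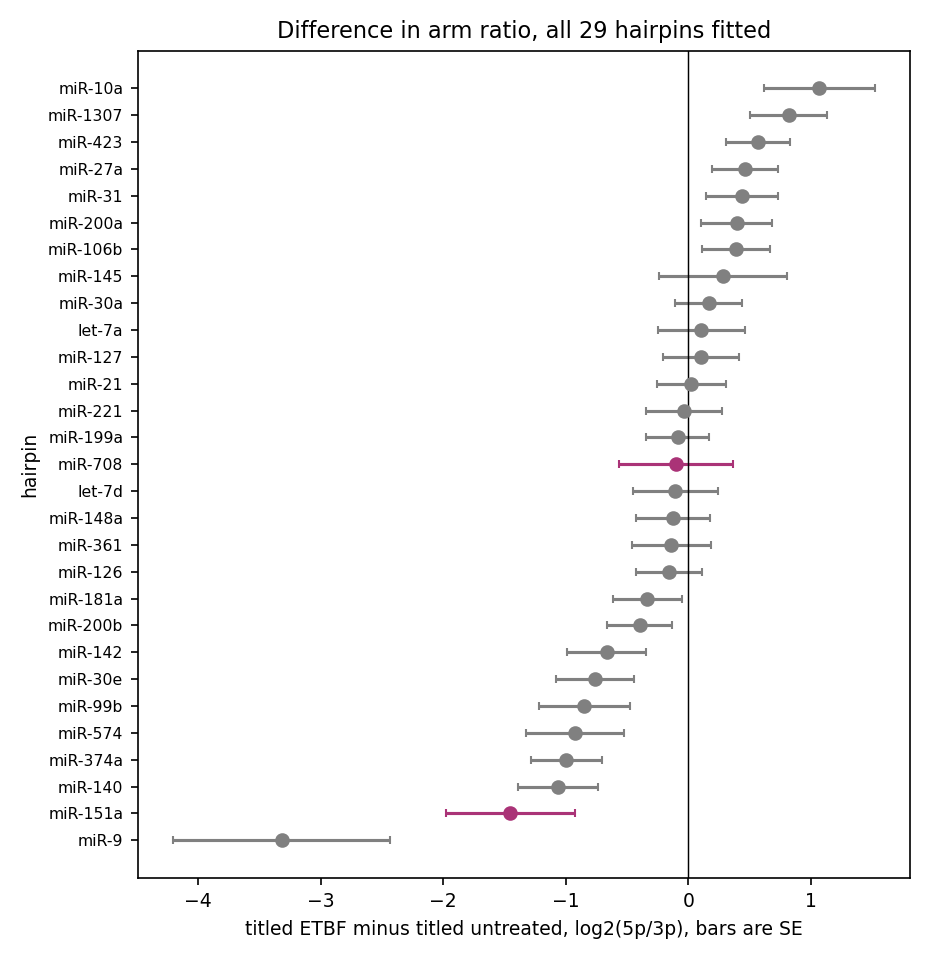
Difference between titled ETBF and titled untreated libraries in the log2 ratio of 5p to 3p counts (x axis, bars are SE) for the 29 hairpins fitted (y axis), with miR-151a and miR-708 in purple. miR-151a, at -1.45, has the second largest difference after miR-9, at -3.32, and miR-708, at -0.10, lies near 0. The 3p arm of miR-9 was near the floor in the titled untreated libraries.

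miR-28-3p, the second most abundant member, was even across the titled untreated libraries. It held 75, 131 and 115 counts there (364.9, 361.8 and 368.3 CPM) and 91, 105 and 133 in the titled ETBF libraries (306.5, 473.7 and 411.9 CPM). The titled untreated values lay within those of the titled ETBF libraries. The coefficient of variation was 0.887% in the titled untreated libraries, where counting error alone would give 9.67%, and 21.3% in the titled ETBF libraries against 9.55%. The log2 fold change of miR-28-3p was 0.11 with an SE of 0.16 (edgeR adjusted p = 0.629), and over 17 alternatives it ran from 0.013 to 0.24. Within libraries, miR-151a-3p held 29.3, 48.4 and 48.9 times the counts of miR-28-3p in the titled untreated and 50.9, 73.4 and 110.0 times in the titled ETBF libraries. These ratios did not overlap, though titled ETBF replicate 1 was close to the nearest titled untreated library. The ratio was not tested, and the levels of miR-151a-3p and of miR-28-3p each overlapped between groups. Among single tested entries, 76 of 195 (39%) had groups that did not overlap.

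miR-28-5p, the other arm of that hairpin, had 7, 8 and 13 counts in titled untreated replicates 1 to 3, against 8, 6 and 20 in titled ETBF replicates 1 to 3 and was left out by the low-count filter. Fitted without that filter its log2 fold change was 0.30 with an SE of 0.40 (edgeR adjusted p = 0.671). The 5p arm made up 8.15% ± 2.23 of miR-28 counts in the titled untreated and 8.85% ± 3.89 in the titled ETBF group (SD, n = 3). The difference in log2 arm ratio of miR-28 was 0.076 with an SE of 0.42 (limma adjusted p = 0.920) in the fit that admitted arms with at least 5 counts. The 3p arm thus led in miR-28 as in miR-151a, by 6.65-fold to 17.5-fold.

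miR-708 was the hairpin of the family in which neither arm dominated. miR-708-5p had 15, 21 and 22 counts in titled untreated replicates 1 to 3 (73.0, 58.0 and 70.5 CPM), against 13, 12 and 19 in titled ETBF replicates 1 to 3 (43.8, 54.1 and 58.8 CPM). miR-708-3p held 11, 23 and 8 counts in the titled untreated and 15, 9 and 8 in the titled ETBF libraries. For both arms the groups overlapped. The log2 fold changes of miR-708-5p and miR-708-3p were -0.34 (SE 0.24) and -0.32 (SE 0.40), and their adjusted p by edgeR were 0.426 and 0.590. That of miR-708-3p was 0.035 without titled untreated replicate 2. The 5p arm of miR-708 made up 59.6% ± 12.9 of its counts in the titled untreated and 58.0% ± 12.0 in the titled ETBF group (SD, n = 3), with exact intervals that reached from 27.5% to 87.7%. The difference in log2 arm ratio of miR-708 was -0.10 with an SE of 0.46 (limma adjusted p = 0.889). The smallest shift in its arm use that could be detected at this depth was not computed.

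Of the 5 members tested, 0 passed in edgeR, against 28 of 195 entries (14.4%), and 1 had an unadjusted p under 0.05, miR-151a-3p. DESeq2 passed 1, miR-151a-3p, and limma-voom 0. None of the 5 had groups that did not overlap, against 76 of 195 entries (39%). The log2 fold change was positive for 2 of the 5 and negative for 3, with a median of -0.32 against -0.033 over all tested entries. The family's share of counts was 1.16%, 1.77% and 1.98% in the titled untreated and 1.91%, 3.54% and 3.55% in the titled ETBF libraries. Means were 1.64% ± 0.43 and 3.00% ± 0.94 (SD, n = 3, exact permutation test, two-sided, p = 0.2, where 0.1 is the smallest p this design allows). The difference of 1.36 percentage points was 0.966 with miR-7641, miR-6087 and miR-1246 left out of the total (exact permutation p = 0.3). Without miR-151a-3p the share was 0.0595% ± 0.00221 and 0.0562% ± 0.00814 (SD, n = 3, exact permutation p = 0.7). The difference in share lay in miR-151a-3p by its abundance alone, since the rest was too small to hold 1.36 percentage points.

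Other miRNAs described in the literature as lying in LINE-2 sequence were read from a list of 17 entries, an overlap not checked here. Of these 7 were at 0 in each library and 4 were tested, of which 2 were higher in the titled ETBF libraries, 0 were lower and 2 did not pass, where 10.8% of all tested entries were called higher and 3.59% lower. The median log2 fold change of the 4 was 0.43. miR-95-3p held 7, 38 and 14 counts in the titled untreated and 60, 45 and 56 in the titled ETBF libraries. Its titled untreated replicate 2 came closest to the titled ETBF libraries, and the log2 fold change was 1.54 (SE 0.33, edgeR adjusted p = 0.0157). It passed in 16 of 16 settings and was 2.23 without titled untreated replicate 2. miR-374a-3p, from the FTX locus of the X chromosome, held 9, 11 and 11 counts against 20, 18 and 19, a log2 fold change of 0.93 (SE 0.26, edgeR adjusted p = 0.0432). The call of miR-374a-3p held in 4 of 16 settings and in none of the 6 that left out a library, with adjusted p up to 0.160. Its other arm, miR-374a-5p, had -0.075 (SE 0.22, edgeR adjusted p = 0.854), and the difference in arm ratio of miR-374a was -0.996 (SE 0.29, limma adjusted p = 0.0871). miR-374b-5p had -0.22 (SE 0.16, edgeR adjusted p = 0.395). The entries that passed are shown with seeds in capitals, to set beside those of the family.
miR-95-3p: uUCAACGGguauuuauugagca
miR-374a-3p: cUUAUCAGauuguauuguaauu
Neither seed occurs in any other mature sequence of the table. miR-374a-3p holds AGAUUGU, a run of 7 bases that it shares with miR-28-3p, as 38 of the 2350 other sequences (1.62%) do with a run of at least that length.

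The entries whose pattern over the 6 libraries was most like that of miR-151a-3p were miR-25-3p, miR-23a-3p, miR-30e-3p, miR-148a-3p and miR-3158-3p, with Pearson r of log2(CPM + 1) of 0.982, 0.973, 0.967, 0.929 and 0.917. Spearman rho was 0.943, 0.829, 0.829, 0.943 and 0.771. The values are a description, since the entries share libraries, scaling and groups. Without titled ETBF replicates 2 and 3, the libraries farthest from the median, r was 0.918, 0.766, 0.925, 0.762 and 0.933 over 4 libraries. miR-25-3p, of the miR-106b cluster in MCM7, stood at 1674, 1925 and 2101 CPM in the titled untreated and 2011, 2562 and 2685 CPM in the titled ETBF libraries. As with miR-151a-3p, its titled ETBF replicate 1 lay among the titled untreated libraries. The log2 fold changes of the 5 entries were 0.34, 0.44, 0.69, 0.51 and 1.34, and their edgeR adjusted p were 0.0939, 0.0772, 0.0815, 0.290 and 0.0749.

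**Figure D5:**
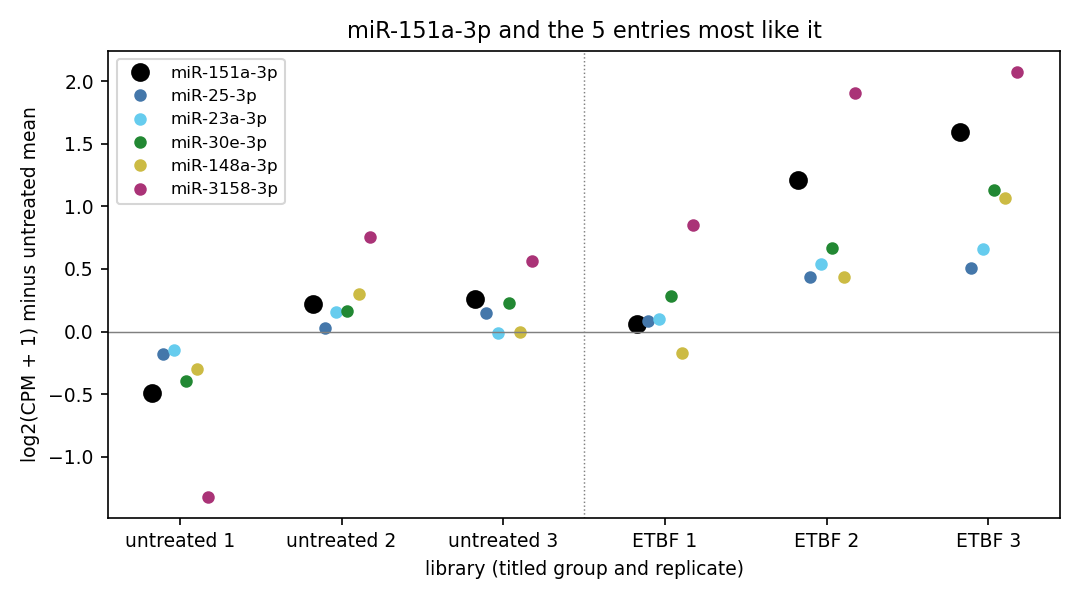
Level of miR-151a-3p (large black points) and of the 5 entries most like it in each library (x axis), as log2(CPM + 1) minus the mean of the titled untreated libraries (y axis). In each of the 6 entries titled untreated replicate 1 is the lowest and titled ETBF replicate 3 the highest, with titled ETBF replicate 1 near the titled untreated libraries.

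For miR-151a-5p the most alike entries were miR-30a-3p, miR-127-5p, miR-31-3p, miR-142-5p and miR-10a-3p, with Pearson r of 0.986, 0.962, 0.945, 0.936 and 0.927 over 6 libraries. The counts of miR-151a-5p were low, and the part of counting error in these r was not tested. No entry stood in both lists, which follows from the opposite course of the miR-151a arms in titled ETBF replicates 2 and 3. Spearman rho was 0.886, 0.943, 0.829, 0.600 and 0.543. Without titled ETBF replicates 2 and 3 the r of miR-10a-3p was -0.24 and those of miR-31-3p and miR-142-5p were 0.428 and 0.433 over 4 libraries, so that likeness rests on the 2 libraries, while miR-30a-3p and miR-127-5p had 0.785 and 0.884. Their log2 fold changes lay between -0.46 and -0.35, and none passed. In abundance, miR-151a-3p stood between miR-26a-5p (log2 fold change 0.15, SE 0.11, edgeR adjusted p = 0.413) and let-7g-5p (0.83, SE 0.12, edgeR adjusted p = 0.00249). let-7g-5p thus passed with a smaller difference than that of miR-151a-3p, its SE being 0.12 against 0.35. miR-151a-5p, at a mean of 57.4 CPM, stood between miR-3158-3p at 58.4 and miR-584-5p at 57.3 CPM, whose log2 fold changes were 1.34 (SE 0.45) and 0.30 (SE 0.25), neither past the threshold.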

How the data were processed

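The authors deposited whole-number read counts per mature miRNA entry, 1 table for each of 6 libraries, not normalised. The submitters' processing notes name featureCounts, Trimmomatic and FastQC, and the build GRCh37.p5. None of their versions, the aligner, the annotation or the handling of multi-mapping reads is given in the sources used here, and counts of entries with shared sequence are therefore uncertain. Per the labels' protocols, a TruSeq RNA kit was used on total RNA of exosomes. Groups follow the sample titles, 3 libraries each. The members and lists were chosen with earlier results of these data known.

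Entries were kept by edgeR's filterByExpr (minimum count 10), which left 195 of 2575, scaled by TMM and tested two-sided by the quasi-likelihood test of edgeR, adjusted over all 195 by Benjamini-Hochberg, with a threshold of 0.05. SEs were derived as |log2 fold change| divided by the root of the F statistic. Arm ratios were log2((5p + 0.5)/(3p + 0.5)) per library, fitted with limma over 29 hairpins. Correlations and spreads used log2(CPM + 1). Named entries are every member, list entries with at least 10 counts in 3 libraries, the 5 entries most correlated with each miR-151a arm, their neighbours in abundance, and the 6 other hairpins with most counts. Alternatives were other scalings, filters, tests and pseudocounts, summed copies or arms, the replicate block and each library left out. Scripts were tested on simulated data. DESeq2 1.42.0, limma 3.58.1 and edgeR 4.0.16 were run in R 4.3.3.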

Additional observations from a re-analysis of the deposited data

How the results depend on the processing

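The log2 fold change of miR-151a-3p kept its sign in all 17 alternatives and crossed the threshold in 8. It was 0.90 with library size alone, 1.11 with upper-quartile scaling, 1.04 with no filter, 1.06 with DESeq2, 0.96 with the replicate block, 1.10 without miR-7641, miR-6087 and miR-1246 and 1.06 with arms summed, and 0.70 to 1.35 with libraries left out. The cause was not tested. Of all entries 28 passed, 21 of them higher and 7 lower. That count was 51 (39 and 12) with no filter and 17 to 59 with libraries left out (17 without titled untreated replicate 3 or titled ETBF replicate 3, 59 without titled ETBF replicate 1). It was 42 (36 and 6) with upper-quartile scaling, 34 (30 and 4) without those 3 entries and 38 with the replicate block. Same-numbered libraries deviated together with correlations of 0.146, 0.0688 and -0.0112, so the numbers were not taken as pairs. The 0 hairpins past the threshold became 1 with a pseudocount of 1 (miR-9), 3 with at least 10 counts per arm in 6 libraries (miR-30e, miR-1307 and miR-99b; miR-151a was not fitted there, having 7 counts of its 5p arm in titled ETBF replicate 2), 4 with precision weights, and 0 to 8 with libraries left out. The arm difference of miR-151a was -2.12 to -1.06 with libraries left out. That of miR-708 was -0.47 to 0.31 with libraries left out (0.31 without titled untreated replicate 3) and 0.000904 with precision weights. The log2 fold change of miR-708-3p was -0.69 to 0.035 with libraries left out (0.035 without titled untreated replicate 2). The other members kept their sign and did not pass. The difference in family share, 1.36 percentage points, was 0.966 without those 3 entries in the total, 2.96 without miR-148a-3p in it and 1.09 to 1.91 with libraries left out. Depth limits the minor arms, which held 6 to 25 counts in each library.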
